A study of Saccharomyces cerevisiae with 6 samples.

Results

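The 10 genes described here encode enzymes that make threonine and the branched-chain amino acids isoleucine, valine and leucine in the budding yeast Saccharomyces cerevisiae: THR1, THR4, ILV1, ILV2, ILV6, ILV5, ILV3, BAT1, LEU4 and LEU1. They were picked as a pathway, by name, from 5365 genes named on a cDNA array, with earlier results of these data known, and each was matched to 1 spot. All 10 had a value on each of the 3 hybridizations, as 3642 genes in all did, so no member was lost to missing values. Cells of strain S288C, growing exponentially in rich glucose medium at 25 °C, received chloroacetaldehyde at 25 ppm when the culture had an optical density of 1, and were exposed for 2 h. Chloroacetaldehyde is a reactive aldehyde known to modify both DNA bases and protein thiols. Polyadenylated RNA of the exposed cells carried Cy5, and RNA of cells at the same density before the addition carried Cy3. The 3 hybridizations came from independent biological samples, numbered here as replicates 1, 2 and 3, and every array has a high-power and a low-power scan. No label says whether the RNA taken before exposure came from a separate culture each time. If it was shared, the 3 ratios share its error, which the SD and the p-values do not cover.

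Threonine is made from aspartate through homoserine. Part of it is deaminated to start isoleucine synthesis, and isoleucine and valine then share a set of mitochondrial enzymes. Leucine branches off from the keto acid precursor of valine. Known regulators of many of these genes in yeast are Gcn4, the activator of the general response to amino acid shortage, and Leu3, which is switched on by an intermediate of leucine synthesis. Rich medium supplies these amino acids from outside.

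Every value below is a log2 ratio of exposed cells over cells before exposure, and so a difference and not a level. No label gives the log base, which was read as 2. The direction is the likely one, because the labels list the exposed cells as the first channel. If the ratio runs the other way, every sign turns. Cy5 marked exposed cells on each array and the exposed cells had grown 2 h longer, so dye and growth cannot be told apart from exposure. The medians over all genes lay at -0.09, -0.01 and -0.02 on replicates 1, 2 and 3. The replicates resembled each other little. Across 3642 genes, which are no independent replicates, replicates 1 and 2 correlated at 0.21, replicates 1 and 3 at -0.05, and replicates 2 and 3 at 0.07. Of the markers of alpha cells, the mating type of S288C, 3 of 4 had a value on every hybridization. For a cells it was 0 of 6 and for meiosis 0 of 5, while 3642 of all 5365 named genes had such values. MF(ALPHA)1 and the a-cell gene BAR1 were not matched to a named gene on the array. The counts for alpha and a cells are thus out of listed markers, and the last share is out of named genes. These counts are no test of mating type. The alpha-agglutinin gene SAG1 had -1.10 ± 0.36, the pheromone receptor gene STE3 -0.72 ± 0.51 and the pheromone gene MF(ALPHA)2 0.30 ± 0.33 (SD, n = 3 each). A ratio between samples of a culture does not show whether a marker is expressed, and the part of these genes in the results below was not tested.

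Most of the synthesis genes had ratios below 0, but none passed the test. Of the 10 genes, 8 had a negative mean, where 55.2% of all tested genes did. The median of the 10 means was -0.38, against -0.04 over all 3642 genes, and single means ran from -0.75 for ILV5 to 0.07 for LEU4. By limma with Benjamini-Hochberg adjustment over all genes, 0 of 10 passed an adjusted p of 0.05, and 0.0549% of all genes did. Their adjusted p ranged from 0.611 for THR1 to 0.996 for ILV2. At an unadjusted limma p under 0.05 there were 3 of 10, all with a negative mean, namely THR1, ILV5 and ILV1. Over all genes 3.38% met that rule with a negative mean, and 6.15% did in either direction. A single gene on 3 arrays cannot fall below p = 0.25 in an exact sign-flip test. The smaller limma p-values rest on assumed normal errors and on the spread shared across genes.

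**Figure D1:**
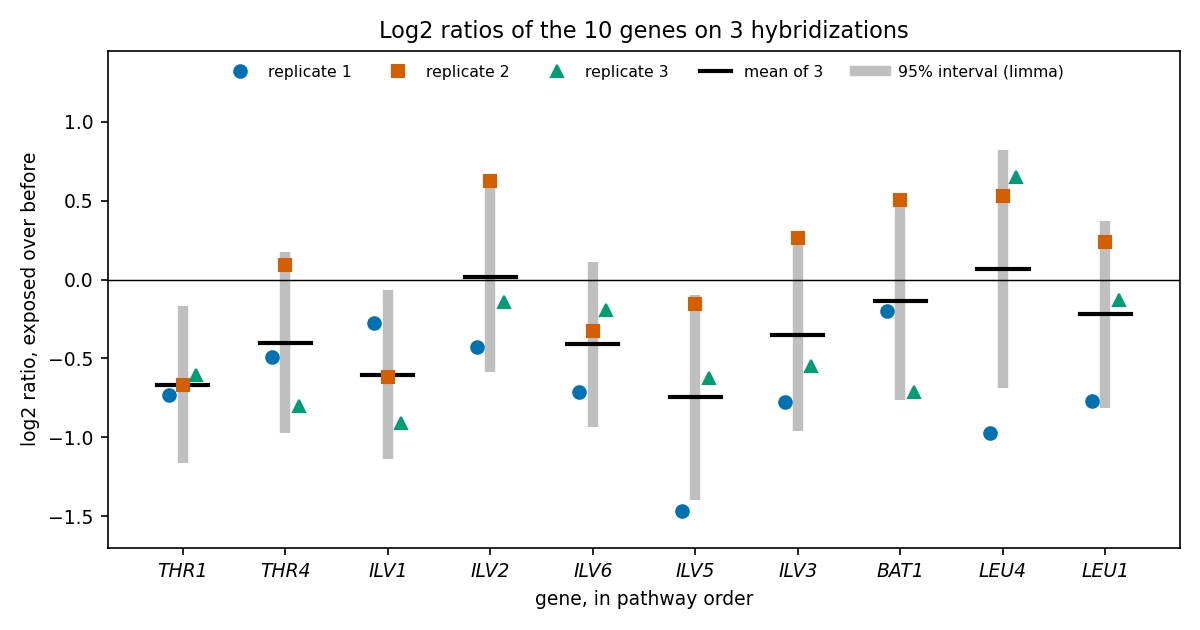
Log2 ratios (exposed over before) of the 10 genes in pathway order, with a coloured symbol for each hybridization, a black bar for the mean of 3 and a grey bar for limma's 95% interval. The grey bars of THR1, ILV1 and ILV5 lie below 0, and the replicate 2 squares of 6 genes lie above 0.

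The direction depended on the hybridization. On replicate 1 all 10 genes were below 0 (57.2% of all genes were), with a median of -0.72 and values from -1.47 to -0.20. On replicate 2 only 4 of the 10 were below 0 (50.5% of all genes), with a median of 0.16 and values from -0.67 to 0.62. On replicate 3 there were 9 of 10 below 0 (52.1% of all genes), with a median of -0.58 and values from -0.91 to 0.65. Replicate 2 held the highest of the 3 values for 6 of 10 genes, against 34.8% of all genes. It was above replicate 1 for 9 of 10, the exception being ILV1, against 54.4% of all genes. Replicate 3 was above replicate 1 for 7 of 10 genes, against 55.3% of all genes. Below 0 on all 3 hybridizations were 4 of 10 genes, THR1, ILV1, ILV5 and ILV6, against 16.1% of all genes. Above 0 on all 3 were 0 of 10, against 11.5% of all genes. Without replicate 1 the median of the 10 means was -0.20, without replicate 2 it was -0.52 and without replicate 3 it was -0.26.

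**Figure D2:**
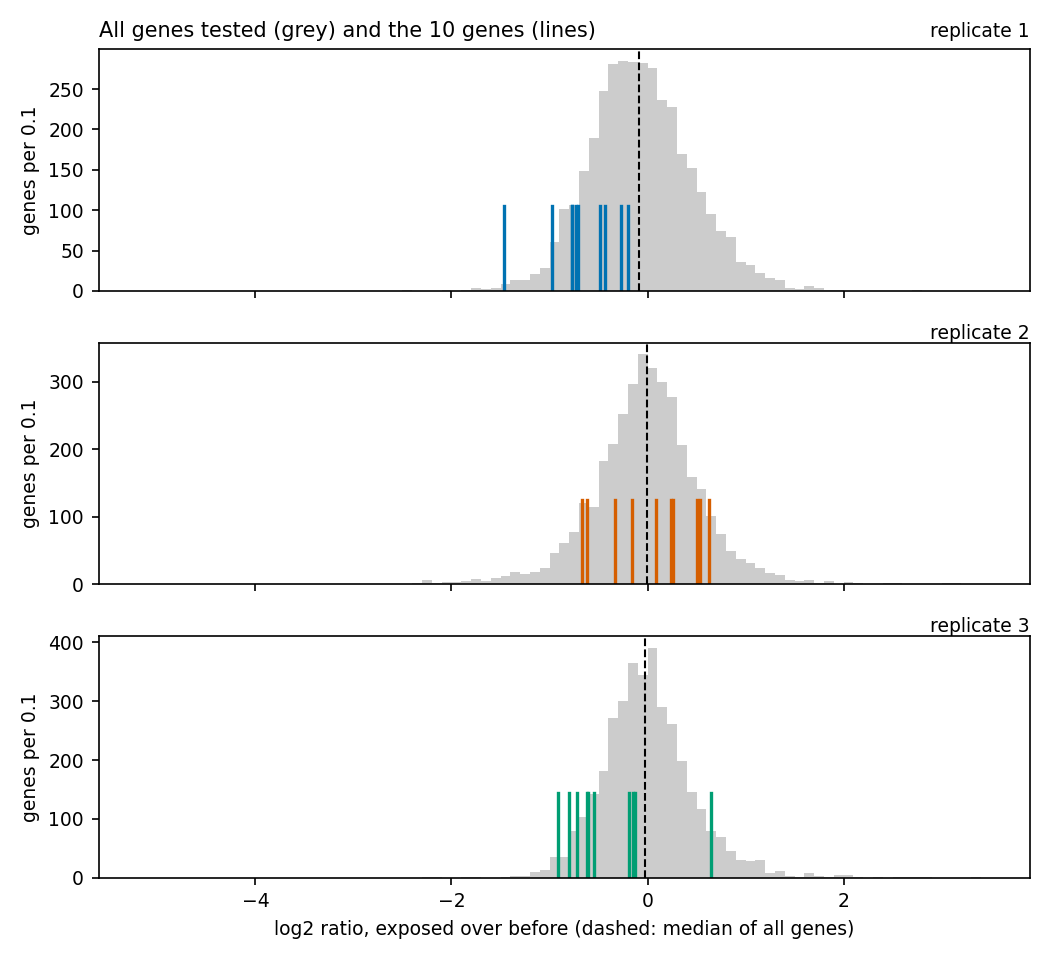
Distribution of log2 ratios of the 3642 tested genes (grey, genes per bin of 0.1) on each hybridization, with the 10 genes as coloured lines and the median of all genes dashed. All 10 lines lie left of the dashed line on replicate 1, they lie on both sides on replicate 2, and LEU4 alone lies to the right on replicate 3.

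THR1 (YHR025W), the homoserine kinase gene, had the smallest SD of the set. Its log2 ratios were -0.73, -0.67 and -0.60 on replicates 1, 2 and 3, a mean of -0.67 ± 0.06 (SD, n = 3), or 1.59-fold lower in exposed cells. All hybridizations lay below 0 and within a narrow span, while SDs of the 10 genes ran up to 0.91. Its values on replicates 2 and 3 came from the high-power scan alone. The limma 95% interval ran from -1.16 to -0.17, with an unadjusted p = 0.0144 and an adjusted p = 0.611. On each hybridization THR1 stood low among all genes, with 9.12%, 9.94% and 7.72% of them below it. THR4 (YCR053W), the gene of threonine synthase, which acts on the product of homoserine kinase, had -0.49, 0.09 and -0.80, a mean of -0.40 ± 0.45 (SD, n = 3). It lay near 0 on replicate 2 and low on the other arrays, and its value on replicate 3 came from the low-power scan alone. With a replicate left out its mean ran from -0.65 (without replicate 2) to -0.20 (without replicate 3). The difference THR1 minus THR4 was -0.24, -0.76 and 0.20, so the order of the pair changed between arrays.

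Genes for the steps before homoserine kinase had means near or above 0, and none passed. The aspartate kinase gene HOM3 had -0.02 ± 0.22, the aspartate semialdehyde dehydrogenase gene HOM2 0.00 ± 0.48 and the homoserine dehydrogenase gene HOM6 0.45 ± 0.66 (SD, n = 3 each). HOM6 had -0.13, 1.16 and 0.33, higher on replicate 2 than on the other arrays. THR1 minus HOM6 was -0.59, -1.83 and -0.94, so THR1 had the lower ratio on every array, with a mean difference of -1.12 ± 0.64 (SD, n = 3). This pair was chosen after its values were seen, and the difference is a description. Homoserine also feeds methionine synthesis through MET2, the homoserine acetyltransferase gene, which had values on replicates 1 and 3 alone, 0.05 and -0.24. Of the 3 listed genes of this branch only STR2 was tested, and it did not pass (limma, adjusted p = 0.980). Of the cystathionine enzymes that link homocysteine and cysteine, STR2 had 0.05 ± 0.41 (SD, n = 3) and STR3 had a value on replicate 1 alone, -0.32.

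ILV1 (YER086W), the threonine deaminase gene that opens the isoleucine branch, had -0.28, -0.62 and -0.91. Its mean was -0.60 ± 0.32 (SD, n = 3), or 1.52-fold lower in exposed cells, with a 95% interval from -1.14 to -0.07 (limma, unadjusted p = 0.0315, adjusted p = 0.769). It was below 0 on all arrays, and on replicate 3 it had the lowest ratio of the 10 genes, with 1.81% of all genes below it. Replicates 2 and 3 of ILV1 rest on the high-power scan alone.

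Both subunit genes of acetolactate synthase, the first enzyme common to isoleucine and valine, were measured. ILV2 (YMR108W), which encodes the catalytic subunit, had -0.43, 0.62 and -0.14, a mean of 0.02 ± 0.54 (SD, n = 3). Its replicate 2 value was the highest of the set on that array, and the limma interval of -0.59 to 0.62 held changes of either sign. ILV6 (YCL009C), which encodes the regulatory subunit through which valine inhibits the enzyme, had -0.71, -0.33 and -0.19, a mean of -0.41 ± 0.27 (SD, n = 3; 95% interval -0.94 to 0.11). ILV6 was below 0 on every array, while ILV2 was not, and without replicate 1 the ILV6 mean was -0.26. ILV2 minus ILV6 was 0.28, 0.95 and 0.05, positive on each array with a mean of 0.43 ± 0.47 (SD, n = 3), a difference smaller than its own spread.

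ILV5 (YLR355C), the acetohydroxyacid reductoisomerase gene, had the lowest mean of the set. The enzyme follows acetolactate synthase, and the protein is also known for a role in the upkeep of mitochondrial DNA. Its log2 ratios were -1.47, -0.15 and -0.62, a mean of -0.75 ± 0.66 (SD, n = 3), or 1.68-fold lower in exposed cells. Replicate 1 was far lower than the other arrays: 0.384% of all genes lay below ILV5 there, against 36.5% on replicate 2 and 7.22% on replicate 3. The limma interval ran from -1.40 to -0.10 (unadjusted p = 0.0285, adjusted p = 0.769). Without replicate 1 the mean was -0.39 (limma, unadjusted p = 0.202). ILV5 was 1 of 3 genes of the set, with LEU1 and LEU4, that had a value in both scans of every hybridization. ILV3 (YJR016C), the gene of the iron-sulfur enzyme dihydroxyacid dehydratase at the next step, had -0.78, 0.26 and -0.55, a mean of -0.35 ± 0.54 (SD, n = 3). It was low on replicates 1 and 3 and above 0 on replicate 2. Without replicate 1 its mean was -0.14, and without replicate 2 it was -0.66.

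BAT1 (YHR208W) encodes the mitochondrial branched-chain aminotransferase, the last step of isoleucine, valine and leucine synthesis. It had -0.20, 0.50 and -0.72, a mean of -0.14 ± 0.61 (SD, n = 3), with no common sign. The cytosolic form BAT2, better known for the breakdown of these amino acids, had -0.01, 0.29 and -0.05, a mean of 0.07 ± 0.19 (SD, n = 3). BAT1 minus BAT2 was -0.19, 0.21 and -0.66, so neither form had the lower ratio on every array.

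Of the 10 genes LEU4 varied most between hybridizations. LEU4 (YNL104C), the gene of the main isopropylmalate synthase, had -0.98, 0.53 and 0.65, a mean of 0.07 ± 0.91 (SD, n = 3). It stood low on replicate 1 and high on replicates 2 and 3, with 3.05%, 86.4% and 91.9% of all genes below it. The limma 95% interval ran from -0.69 to 0.82. LEU1 (YGL009C), the gene of the iron-sulfur enzyme isopropylmalate isomerase, had -0.77, 0.24 and -0.13, a mean of -0.22 ± 0.51 (SD, n = 3). LEU2, the isopropylmalate dehydrogenase gene that completes the branch and is outside the 10, had -1.12, 0.08 and 0.19, a mean of -0.28 ± 0.72 (SD, n = 3). These 3 genes were each below -0.7 on replicate 1 and not below -0.2 elsewhere. LEU9, a second isopropylmalate synthase gene and a relative of LEU4 in sequence, had -0.68 and -0.25 on replicates 1 and 3 and no value on replicate 2, so it was not tested. A cDNA spot of LEU4 could bind some LEU9 RNA.

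The 10 genes mostly changed their order from array to array, as tested genes in general did. Of 45 pairs, 11 had the same order on all 3 hybridizations, where 27.1% of all pairs of tested genes did. Among these 11 pairs, ILV5 minus LEU4 was -0.49, -0.69 and -1.27, a mean of -0.82 ± 0.41 (SD, n = 3), and ILV5 minus ILV2 was -1.04, -0.78 and -0.48, a mean of -0.76 ± 0.28 (SD, n = 3). A shift that is the same for all genes of an array cancels in such differences. A correction that differs between spots need not cancel. Both pairs were picked after seeing the values and carry no test.

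Repeat scans differed far less than hybridizations did. Of 30 combinations of gene and hybridization, 19 had a value in both scans, 10 in the high-power scan alone and 1 in the low-power scan alone. The absolute difference between scans was 0.07 at the median and at most 0.21, in THR4 on replicate 2, while the SD between hybridizations was 0.53 at the median of the 10 genes. Over 7375 spot values with both scans in the whole table the median difference was 0.12.

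**Figure D3:**
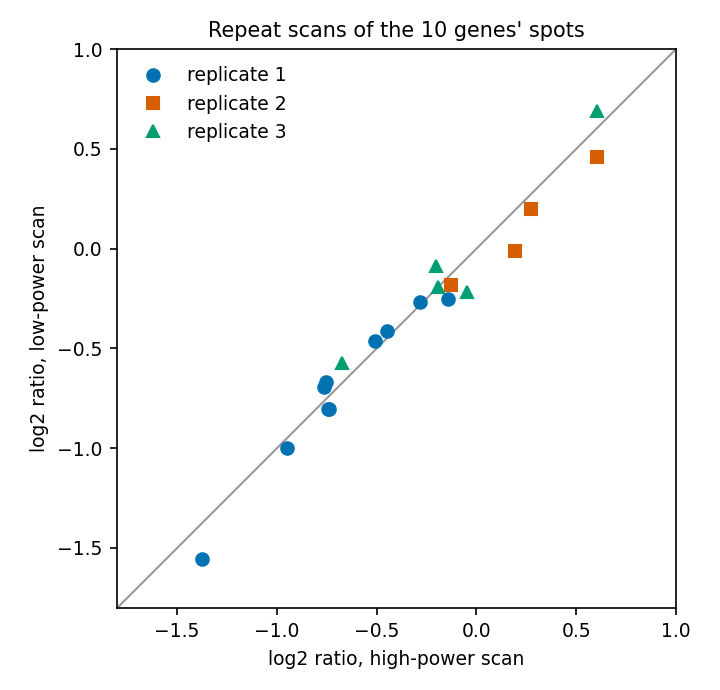
Log2 ratio in the low-power scan (vertical) against the high-power scan (horizontal) for the 19 combinations of gene and hybridization that had both, with a symbol and colour for each hybridization and a line of equality. Points stay near the line from about -1.5 to 0.7, with differences of at most 0.21.

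The remaining genes of the same pathways had a median near 0. Of 6 listed, 5 were tested (BAT2, LEU2, HOM2, HOM3 and HOM6), and 0 passed in either direction, with 0 at an unadjusted limma p under 0.05. Their median was 0.00, with means from -0.28 to 0.45. All 5 were below 0 on replicate 1, none was on replicate 2 and 1 was on replicate 3. Medians on the hybridizations were -0.25, 0.25 and 0.19. The 10 genes and these 5 thus differed most in their medians on replicate 3.

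Of 5 regulator genes 2 were tested and 0 passed, with 0 at an unadjusted limma p under 0.05. GCN4 had -0.28, 0.62 and 0.00, a mean of 0.11 ± 0.46 (SD, n = 3); Gcn4 is controlled largely at translation, which these arrays do not measure. GCN20, a gene of the upstream Gcn2 kinase pathway, had -0.65, -0.31 and -0.29, a mean of -0.42 ± 0.20 (SD, n = 3), below 0 on every array. LEU3 had 0.32 and -0.61 on replicates 1 and 3 and no value on replicate 2. The kinase gene GCN2 had a value on replicate 1 alone (0.03), and GCN1 was not matched to a named gene on the array. Of 5 Leu3 targets outside the 10, 0 passed and 0 had an unadjusted limma p under 0.05. Their median was -0.24, and 4 means were negative. They were LEU2, the glutamate dehydrogenase gene GDH1 (-0.30 ± 0.81), the malic enzyme gene MAE1 (-0.24 ± 0.32), the permease gene BAP2 (-0.19 ± 0.10) and the mitochondrial carrier gene OAC1 (0.12 ± 0.62; SD, n = 3 each). GDH1 had -1.22, -0.01 and 0.33, and like LEU2 it was low on replicate 1 alone.

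Genes for uptake and exchange had mixed signs. Of 7 tested, 0 passed and 0 had an unadjusted limma p under 0.05. The median was 0.06, with means from -0.19 for BAP2 to 0.27 for the permease gene TAT1. BAP2 was below 0 on each array, at -0.14, -0.14 and -0.31. The broad permease gene AGP1 had -0.23, -0.01 and 0.96, and GNP1, which carries threonine among others, had -0.21, 0.54 and -0.72. BAP3 had 0.06 ± 0.42, and LEU5, a mitochondrial carrier gene needed for coenzyme A in mitochondria, had -0.15 ± 0.76 (SD, n = 3 each).

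Among 8 tested genes of 9 for the breakdown of these amino acids, 0 passed and the median was 0.01. The pyruvate decarboxylase gene PDC1, which also serves fermentation, had -1.85, -0.32 and -0.42, a mean of -0.86 ± 0.85 (SD, n = 3), and was the single one with an unadjusted limma p under 0.05 (adjusted p = 0.725). CHA1, the catabolic serine and threonine deaminase gene, ranged most, with 0.63, 0.17 and -1.90. It had its low value on replicate 3, where the biosynthetic deaminase gene ILV1 also had its lowest. The threonine aldolase gene GLY1 had 0.06 ± 0.40, the alcohol dehydrogenase gene SFA1 0.29 ± 0.62, and the decarboxylase genes PDC5 and ARO10 and the related THI3 had -0.31 ± 0.69, 0.03 ± 0.54 and 0.00 ± 0.20 (SD, n = 3 each).

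ILV3 and LEU1 encode iron-sulfur enzymes, and 6 of 9 other genes of such enzymes were tested. Of these 0 passed, and 1 had an unadjusted limma p under 0.05, the succinate dehydrogenase gene SDH2. The median was 0.10, and 4 means were positive. SDH2, with 0.98, 0.67 and 1.17, had the highest mean (0.94 ± 0.25) and RIP1 of the respiratory chain had 0.52 ± 0.59, while LYS4 of lysine synthesis had -0.19 ± 0.20 and LIP5 of lipoate synthesis -0.26 ± 0.19 (SD, n = 3 each). The aconitase gene ACO1 had 0.06 ± 0.67 and the sulfite reductase gene MET5 0.14 ± 0.84 (SD, n = 3 each).

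Set beside 2 other groups of amino acid pathways, the 10 genes had the lowest median of the 3. For arginine, histidine, lysine and aromatic synthesis, 25 of 36 genes were tested, 0 passed and 0 had an unadjusted limma p under 0.05. Their median was -0.09, and 16 means were negative. Medians on the hybridizations were -0.42, 0.16 and -0.12, low on replicate 1 and above 0 on replicate 2 as for the 10 genes. The lowest means there were LYS2 at -0.47 ± 0.44 and HIS4 at -0.39 ± 0.65, and the highest was ARG1 at 0.28 ± 0.73 (SD, n = 3 each). For methionine and cysteine synthesis, 14 of 18 were tested and 0 passed, with 1 at an unadjusted limma p under 0.05, the S-adenosylmethionine synthetase gene SAM2 (0.74 ± 0.86; SD, n = 3). Their median was 0.11, 5 means were negative, and replicates 1, 2 and 3 had medians of -0.54, 0.68 and 0.21. All 3 lists were lower at the median on replicate 1 than on replicate 2. No test of the difference between lists was made, and the share with a negative mean (8 of 10, 16 of 25 and 5 of 14) is given as a count.

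**Figure D4:**
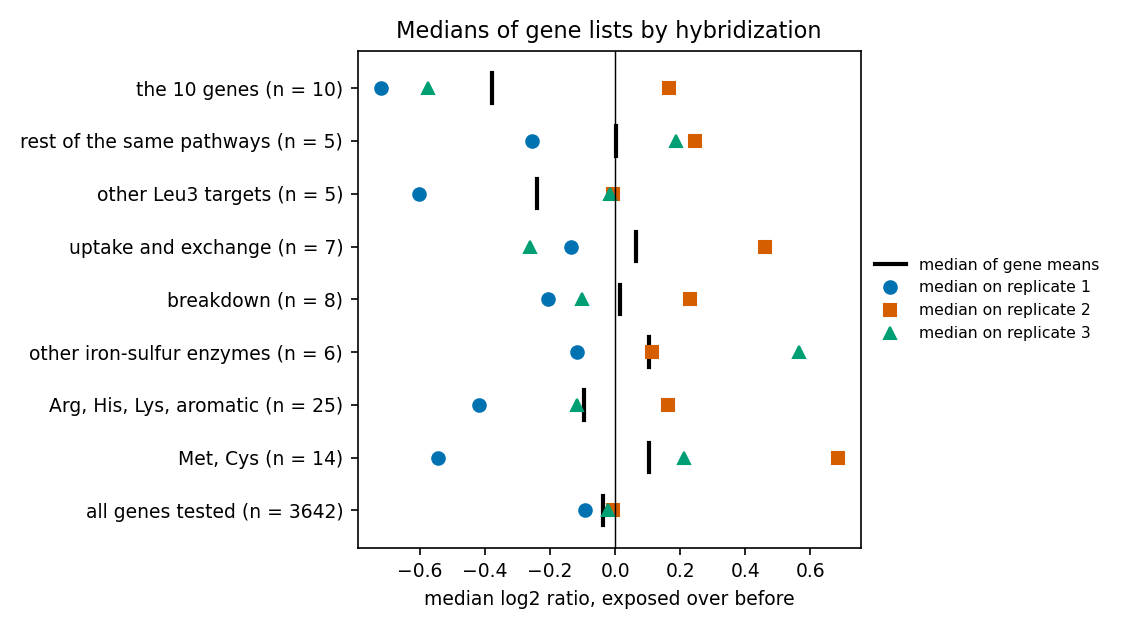
Median log2 ratio (exposed over before) of each gene list on replicates 1, 2 and 3 (coloured symbols) and the median of the gene means (black bar), with the number of genes tested. The 10 genes have medians of -0.72, 0.16 and -0.58, and all genes tested lie near 0 on each hybridization.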

How the data were processed

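Two-colour cDNA arrays were measured for 1 group of 3 hybridizations (6 scans). The deposited values are log2 ratios per spot, normalized by the authors with LOWESS scan by scan, using spots flagged 0, per the labels. The labels name no scanner, background correction or log base, and intensities were not used here, so no signal over background can be given and precision is limited by the number of arrays. LOWESS centres each scan, which hides any shift shared by most transcripts. Both scans of a spot were averaged where present, then spots of a gene. Names came from the platform annotation, updated through the R64 gene table; 5365 genes were named. No sequence is shown, and no coordinates are given because no build is named.

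The 3642 genes measured on every hybridization entered 1 fit of the mean in limma 3.58.1 (R 4.3.3; eBayes, two-sided, Benjamini-Hochberg, threshold 0.05). The procedure was run on simulated data with normal errors and added changes of 1 or 2 log2 units. These changes were larger in size than any mean of the 10 genes. The simulation thus does not show whether changes of their size are found. The members and gene lists were chosen with earlier results of these data known. All 10 members and any measured gene of the lists may be named, and the 4 genes nearest to the median profile of the members and to ILV5. Alternatives were either scan, both scans, low-power values first, at least 2 hybridizations, centring, scaling, first spot, moderation, left-out replicates and, added after seeing the data, spot position.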

Additional observations from a re-analysis of the deposited data

How the results depend on the processing

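None of the 10 genes passed the adjusted threshold under any of the 13 alternatives that tested it: over 116 values the adjusted p ran from 0.514 to 0.998. Only 9 of the 10 were tested with the high-power scan alone, 4 with the low-power scan alone and 3 with both scans required. At an unadjusted limma p under 0.05 there were 2 of the 10 without replicate 1 (ILV1 and THR1; 5.93% of all genes), 1 without replicate 2 (ILV5; 3.49%), 2 without replicate 3 (ILV5 and THR1; 9.09%) and 1 with trended and robust moderation (THR1; 2.88%). The median over those of the 10 genes tested stayed negative, from -0.41 to -0.22 under the other settings and from -0.52 to -0.20 with a replicate left out. The lowest of these in size, apart from left-out replicates, was -0.22, over the 3 genes with both scans on every array. Of the 116 values 110 kept their sign. The changes of sign were in ILV2, BAT1, LEU1 and LEU4, with main means of 0.02, -0.14, -0.22 and 0.07. ILV2 was -0.0079 with the high-power scan alone. With a replicate left out BAT1 ran from -0.46 to 0.15 and ILV2 from -0.29 to 0.24. LEU1 then ran from -0.45 to 0.053 and LEU4 from -0.22 to 0.59. The cause was not tested. Over all genes 2 passed. That count was 4 among 967 genes with both scans, 1 with the median of neighbouring spot numbers taken out, 0 with trended and robust moderation, and from 0 (without replicate 1) to 12 (without replicate 3) with a replicate left out. No paired analysis was possible because the samples form 1 group. With 3 arrays the limma 95% interval of the 10 genes, which is not adjusted, reached 0.60 to either side at the median. The adjusted test was stricter. THR1 at -0.67 and ILV5 at -0.75 did not pass it (limma, adjusted p = 0.611 and 0.769). Smaller changes were thus mostly not detectable, and changes well above 0.60 could be missed too. Outside the 10, SAG1 at -1.10 and SDH2 at 0.94 did not pass either (limma, adjusted p = 0.212 and 0.321). That none of the 10 passed therefore does not exclude changes of such size.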

Other observations

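By distance over the 3 hybridizations, the genes nearest to the median profile of the 10 synthesis genes (-0.72, 0.16 and -0.58) were PRE2, a proteasome subunit gene, at 0.12, the RNA helicase gene DBP2 at 0.12, SMY2 at 0.13 and YNL019C at 0.14. PRE2 had -0.61, 0.18 and -0.61, and DBP2 had -0.74, 0.05 and -0.53. The genes nearest to ILV5 were YPR158C-C at 0.28, the cell wall transglycosylase gene UTR2 at 0.32, the translation elongation factor gene TEF4 at 0.39 and the methionine aminopeptidase gene MAP2 at 0.41. TEF4 had -1.26, -0.22 and -0.95, and UTR2 had -1.40, -0.44 and -0.75, so both were lowest on replicate 1, as ILV5 was. The distance is the Euclidean distance between log2 ratios. Over 3 points such likeness is a description, and among 3642 genes some can lie close to a profile without being related to it.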
